A study of Mus musculus with 62 samples.

Results

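Brown adipose tissue of mice injected with cachectic melanoma cells (CAC) was compared with that of mice injected with non-cachectic melanoma cells (NCAC), in both cases 6 weeks after injection. The 5 CAC and 5 NCAC libraries were chosen by their sample labels and make up 10 of the 62 libraries of the series. The others are 5 libraries of mock-injected mice (Con) at 6 weeks and libraries of the same 3 treatments at 2, 4 and 8 weeks. All mice were female and 2 months old per the labels, and all carried the same background, which the sample labels name C57BL6/J and the series text names NCI Ath/nude, a host without a thymus that lacks mature T cells. The labels do not name the melanoma cells, and they give 1 cell population for each arm, so cachexia and any other property in which the 2 populations differ cannot be told apart. Each library was taken as a separate mouse, since the labels call the libraries biological replicates. Nothing further says so. For single genes, p-values and standard errors rest on the spread within all 12 groups of the 62 libraries, pooled. They do not measure the spread of these 10 libraries alone.

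Brown fat burns lipid and glucose to make heat. Sympathetic noradrenaline acts on the beta-3 adrenergic receptor Adrb3, lipolysis releases fatty acids, and the uncoupling protein Ucp1 lets protons re-enter the mitochondrial matrix without making ATP. Cachexia is a wasting syndrome of cancer in which muscle and fat are lost, often with systemic inflammation. In the acute phase response, cytokines of the interleukin-6 family signal through the shared receptor subunit gp130, JAK kinases and the transcription factor STAT3, and induce plasma proteins, chiefly in the liver but also in adipose tissue.

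Values are TPM, transcript levels corrected for gene length and set to a fixed library total, which the authors deposited, and log2 differences are CAC minus NCAC on log2(TPM + 1), each with its standard error. Genes count as called where limma, over 12581 genes tested, gave a p under 0.05 after Benjamini-Hochberg adjustment, and every adjusted p below comes from that test. The 10 brown adipocyte markers were all tested and none was called, with summed levels of 32140 to 34880 TPM in CAC and 23100 to 39610 TPM in NCAC. They include general adipocyte genes such as Adipoq and Plin1, so their sum does not tell brown from white fat. The levels of Ucp1 in each library are given below. Of 12 T and NK cell markers, 11 were under 1 TPM in all 10 libraries. Between 11058 and 11928 genes reached 1 TPM per library, and the depth is unknown, since TPM keeps no read totals. Transcripts of the mitochondrial genome took 50.9, 53.5, 51.5, 52.9 and 52.9% of TPM in CAC, against 57.3, 55.1, 61.1, 48.4 and 61.8% in NCAC. The difference of -4.42 percentage points had an exact two-sided permutation p of 0.143 (smallest possible 0.00794), and without NCAC library 4 it was -6.51 with p = 0.00794. NCAC library 4 exceeded the other 4 NCAC libraries by over 1 log2 unit in 70 genes, and CAC library 3 exceeded the other 4 CAC libraries in 41. By the same margin, CAC library 2 lay below the other 4 CAC libraries in 42 genes, and NCAC library 3 below the other 4 NCAC libraries in 33.

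More genes were called higher in CAC than lower. Of the 12581 genes, 977 (7.77%) were called, 732 higher (5.82%) and 245 lower (1.95%), and 175 of the higher and 54 of the lower differed by more than 1 log2 unit. The groups did not overlap for 536 of the 732 higher and 132 of the 245 lower genes. Over all genes tested, every CAC value lay above every NCAC value in 807 (6.41%) and below in 213 (1.69%). Over the whole set the genes had a median log2 difference of 0.07. After rescaling by median of ratios, which brought that median to -0.003, 704 genes were higher and 638 lower. After quantile normalization 701 were higher and 720 lower, and after removal of the mitochondrial genome, which moved the median to -0.05, 556 were higher and 1007 lower. The lower count moved further under these scalings than the higher count. Without CAC library 1 the count was 593, with 486 higher and 107 lower.

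**Figure D1:**
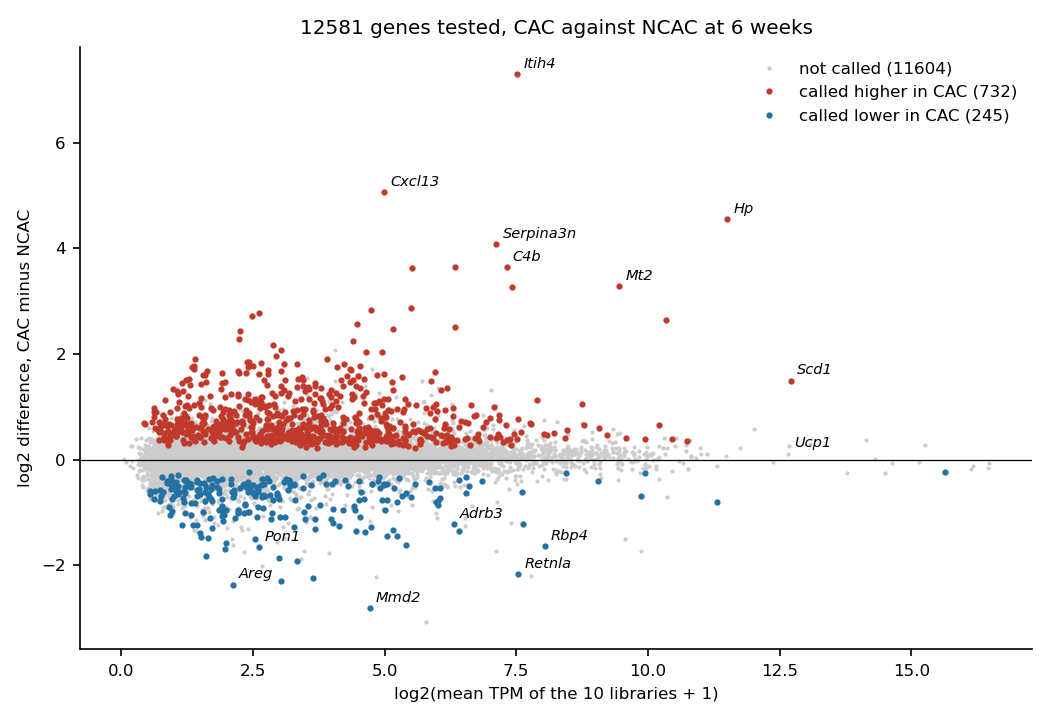
Log2 difference between CAC and NCAC at 6 weeks (y axis, log2(TPM + 1) units) against the mean level of the 10 libraries (x axis, log2 of TPM + 1), 1 point per gene, for 12581 genes. The 732 genes called higher are red and the 245 called lower are blue, and the highest red points are Itih4, Cxcl13, Hp, Serpina3n and C4b.

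Acute phase genes were among those with the largest differences, Itih4 first of all named genes. Of 24 listed acute phase and protease inhibitor genes 21 were tested, 15 rose and none fell, with a median log2 difference of 1.53. Among all genes, 5.82% were called higher and 1.95% lower. Itih4, which encodes a heavy chain of the inter-alpha-trypsin inhibitor family secreted into plasma, had 563, 302, 302, 397 and 245 TPM in the CAC libraries, against 0.921, 1.09, 1.24, 1.91 and 1.05 TPM in the NCAC libraries. The gene lies at chr14:30886476-30902353, plus strand (mm10, GENCODE annotation). Each CAC library lay far above the highest NCAC library, and the log2 difference was 7.29 ± 0.67 (adjusted p = 3.6e-11). Haptoglobin (Hp, chr8:109575128-109579172, minus strand), which binds free haemoglobin, had 7149, 3545, 7173, 7544 and 2490 TPM in the CAC libraries, against 226, 147, 206, 245 and 274 TPM in the NCAC libraries. CAC libraries 2 and 5 were the lowest of their group and still lay far above all NCAC libraries, with a log2 difference of 4.56 ± 0.52 (adjusted p = 2.0e-08). The protease inhibitor Serpina3n had 412, 131, 366, 220 and 186 TPM in the CAC libraries, against 9.89, 16.4, 9.32, 14.8 and 18.3 TPM in the NCAC libraries, and its neighbour in the same gene cluster, Serpina3m, had 17.5, 4.35, 15.3, 6.05 and 6.25 TPM in the CAC libraries, against 0.296, 0.594, 0.190, 0.457 and 0.510 TPM in the NCAC libraries. Neither gene overlapped between the groups, and their log2 differences were 4.08 ± 0.52 (adjusted p = 1.7e-07) and 2.78 ± 0.43 (adjusted p = 8.0e-06). Lrg1, a leucine-rich glycoprotein of plasma, had 338, 277, 362, 381 and 189 TPM in the CAC libraries, against 29.8, 24.9, 27.8, 55.5 and 22.4 TPM in the NCAC libraries. Its groups were also apart, by 3.26 ± 0.38 (adjusted p = 2.1e-08). The 6 tested members not called were Lcn2, Orm1, Orm3, Serpina3k, Fga and Fgg, of which only Fgg had a log2 difference below 0. The Serpina3, Saa and Orm genes are families of near-identical copies, and how the authors' counting divided reads among copies is not given in the sources used here.

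Promoter windows are shown for the 4 highest named genes that had an entry in the RefSeq table (build GRCm38.p6), because these genes carried the largest differences and STAT3 binds the palindrome TTCNNNGAA. Each window is 300 bases, from 250 before the gene start to 50 after, on the plus strand, with matches to that motif in capitals. The windows are chr14:30886226-30886525 for Itih4, chr5:95956689-95956988 for Cxcl13, chr12:104406458-104406757 for Serpina3n and chr7:25897408-25897707 for Cyp2b10.
Itih4: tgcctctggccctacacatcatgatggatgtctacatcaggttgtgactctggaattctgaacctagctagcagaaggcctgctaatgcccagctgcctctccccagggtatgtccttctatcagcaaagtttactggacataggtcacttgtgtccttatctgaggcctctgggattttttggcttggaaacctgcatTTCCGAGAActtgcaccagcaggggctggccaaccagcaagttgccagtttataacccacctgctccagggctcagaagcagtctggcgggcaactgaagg
Cxcl13: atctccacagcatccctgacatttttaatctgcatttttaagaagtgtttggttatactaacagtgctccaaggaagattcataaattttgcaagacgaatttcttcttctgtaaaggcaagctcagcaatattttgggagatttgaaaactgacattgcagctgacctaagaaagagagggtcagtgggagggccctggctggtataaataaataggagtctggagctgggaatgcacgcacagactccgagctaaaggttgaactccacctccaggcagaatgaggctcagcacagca
Serpina3n: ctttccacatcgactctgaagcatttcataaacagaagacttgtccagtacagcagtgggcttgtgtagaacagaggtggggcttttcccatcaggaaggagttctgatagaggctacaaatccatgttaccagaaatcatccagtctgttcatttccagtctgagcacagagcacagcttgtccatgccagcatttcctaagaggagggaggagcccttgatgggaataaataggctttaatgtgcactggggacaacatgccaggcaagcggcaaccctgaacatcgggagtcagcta
Cyp2b10: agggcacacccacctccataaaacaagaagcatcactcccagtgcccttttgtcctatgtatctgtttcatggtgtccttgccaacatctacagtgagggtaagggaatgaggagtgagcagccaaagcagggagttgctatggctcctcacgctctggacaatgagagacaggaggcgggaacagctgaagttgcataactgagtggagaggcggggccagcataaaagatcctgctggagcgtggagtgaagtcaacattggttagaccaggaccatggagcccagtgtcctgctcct
The Itih4 window held 1 match, TTCCGAGAA, which begins 51 bases before the gene start, and the other 3 windows held none. The motif reads the same on both strands, and 8.3% of the 32851 windows in the table, 2726 windows, held at least 1 match. A match describes the letters only, and no match says nothing of binding elsewhere. Of the 12 highest named genes, 9 had an entry.

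Receptors and mediators of the interleukin-6 pathway were in part higher, in a list that also held the interleukin-1 genes Il1r1 and Il1rn and the receptor Il4ra. Of 19 tested members 9 rose and none fell, with a median log2 difference of 0.47, and 6 of them were called without CAC library 1. Among all genes, 5.82% were called higher and 1.95% lower. The transcript of the ligand Il6 was nearly undetected, with 0.0567, 0.106, 0.0557, 0.113 and 0 TPM in the CAC libraries, against 0.0175, 0, 0.0168, 0.0180 and 0 TPM in the NCAC libraries, below the level needed for testing. Osmr, the receptor subunit for oncostatin M, had 12.8, 8.90, 9.91, 9.19 and 7.01 TPM in the CAC libraries, against 2.70, 2.77, 1.77, 1.97 and 1.99 TPM in the NCAC libraries. The transcription factor Stat3 had 47.1, 35.0, 33.4, 31.1 and 29.8 TPM in the CAC libraries, against 12.8, 13.2, 9.76, 11.9 and 10.1 TPM in the NCAC libraries. Its feedback inhibitor Socs3 had 11.4, 8.89, 14.2, 17.8 and 9.07 TPM in the CAC libraries, against 3.32, 2.90, 1.04, 1.92 and 1.64 TPM in the NCAC libraries. None of these 3 genes overlapped between groups, and the log2 differences were 1.70 ± 0.24 (adjusted p = 9.8e-07) for Osmr, 1.52 ± 0.21 (adjusted p = 6.4e-07) for Stat3 and 2.08 ± 0.28 (adjusted p = 5.1e-07) for Socs3. Il1r1, the signalling receptor for interleukin-1, had 6.02, 6.84, 8.18, 7.44 and 8.73 TPM in the CAC libraries, against 3.01, 3.74, 3.04, 3.82 and 2.44 TPM in the NCAC libraries. The spread within each group was small beside the log2 difference of 1.00 ± 0.15 (adjusted p = 2.7e-06). Il6st, which encodes gp130, and Jak2 were also called higher, while Il6ra, Jak1 and Tyk2 were not called.

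**Figure D2:**
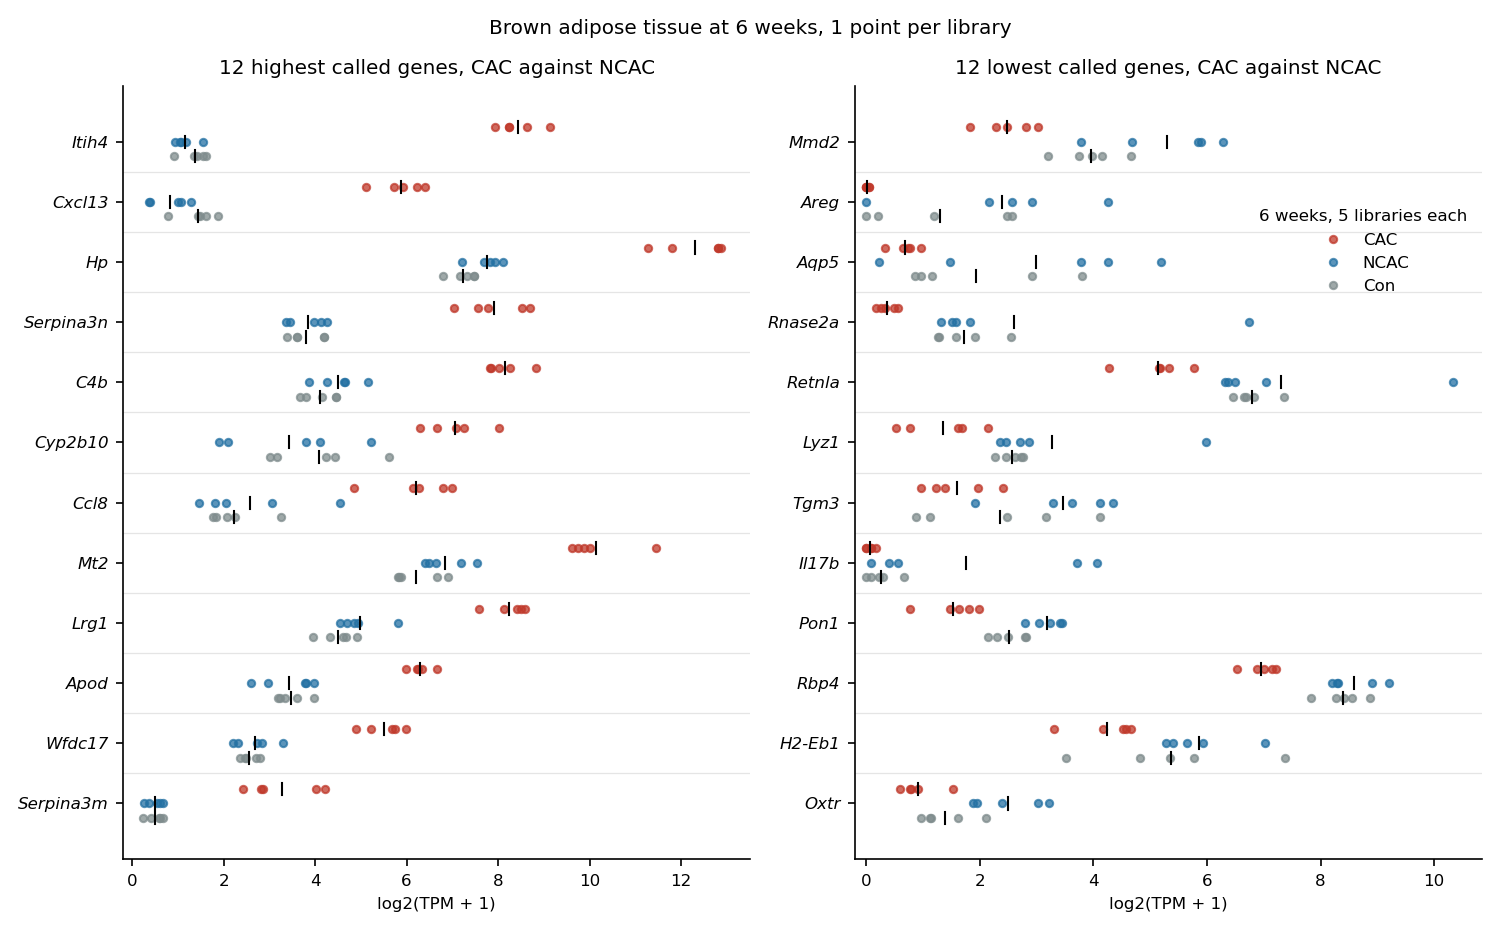
Levels of the 12 highest (left) and 12 lowest (right) named genes, 1 point per library on a log2(TPM + 1) axis, with CAC (red), NCAC (blue) and Con (grey) at 6 weeks in rows of 5 points each and the group mean as a vertical tick. The CAC points stand apart from both other groups for each gene on the left, while on the right NCAC library 4 lies far from the other NCAC libraries for Rnase2a, Retnla and Lyz1.

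Complement genes and chemokines were also among the genes that rose. Of 17 tested complement genes 9 rose and none fell, with a median of 0.94, beside 5.82% of all genes called higher and 1.95% called lower. C4b, the fourth complement component, had 228, 257, 456, 224 and 304 TPM in the CAC libraries, against 24.0, 18.1, 13.6, 34.4 and 23.6 TPM in the NCAC libraries. The lowest CAC library had 224 TPM and the highest NCAC library 34.4 TPM, and the log2 difference was 3.65 ± 0.37 (adjusted p = 5.4e-10). C4a, a near-identical copy of C4b, was also called higher. Factor B of the alternative pathway (Cfb) had 21.1, 19.6, 38.0, 18.8 and 30.1 TPM in the CAC libraries, against 5.21, 8.46, 4.67, 9.40 and 6.37 TPM in the NCAC libraries. The C1 inhibitor Serping1 had 72.5, 82.5, 134, 87.5 and 97.4 TPM in the CAC libraries, against 41.2, 51.7, 23.2, 30.0 and 44.2 TPM in the NCAC libraries. Their groups did not overlap, and the log2 differences were 1.75 ± 0.28 (adjusted p = 1.1e-05) and 1.32 ± 0.22 (adjusted p = 3.7e-05). C5ar1, the receptor for the complement fragment C5a, averaged 4.40 ± 0.670 TPM in CAC and 1.85 ± 0.655 TPM in NCAC (SD, n = 5 each), with a log2 difference of 0.94 ± 0.17 (adjusted p = 9.2e-05). The central component C3 was not called.

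Of 13 tested chemokines 5 rose and 1 fell, with a median of 0.61, beside 5.82% of all genes called higher and 1.95% called lower. Cxcl13 (chr5:95956951-95961068, plus strand), the chemokine that attracts B cells through the receptor CXCR5, had 83.3, 52.2, 59.4, 33.7 and 73.6 TPM in the CAC libraries, against 1.11, 1.00, 0.284, 0.303 and 1.43 TPM in the NCAC libraries. CAC library 4 was the lowest of its group and still far above the highest NCAC library, and the log2 difference was 5.06 ± 0.64 (adjusted p = 1.5e-07). Ccl8, a ligand for monocytes, had 27.6, 76.3, 126, 69.6 and 110.3 TPM in the CAC libraries, against 2.49, 7.25, 1.75, 22.4 and 3.15 TPM in the NCAC libraries. CAC library 1 and NCAC library 4 came closest to each other without overlapping, and the log2 difference was 3.62 ± 0.50 (adjusted p = 6.6e-07). The related Ccl12 had 4.27, 3.76, 7.73, 12.1 and 7.86 TPM in the CAC libraries, against 0.553, 2.70, 0.607, 1.87 and 1.23 TPM in the NCAC libraries. Its lowest CAC value remained above its highest NCAC value, with a log2 difference of 1.75 ± 0.32 (adjusted p = 0.00015). Cxcl9, an interferon-gamma-induced ligand of CXCR3 on T cells, fell, with 0.259, 0.328, 0.643, 0.514 and 1.02 TPM in the CAC libraries, against 2.77, 2.02, 2.73, 2.39 and 3.18 TPM in the NCAC libraries. All CAC values lay below all NCAC values, by -1.23 ± 0.26 (adjusted p = 0.00095). Of 10 listed markers of B and plasma cells 4 were tested and none was called, and over the list the summed level was 13.03 to 24.75 TPM in CAC and 16.2 to 83.7 TPM in NCAC. Of 18 tested interferon-stimulated genes none was called in either direction, beside these same shares of all genes. Under alternative processing up to 5 of them were called lower and up to 1 higher.

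**Figure D3:**
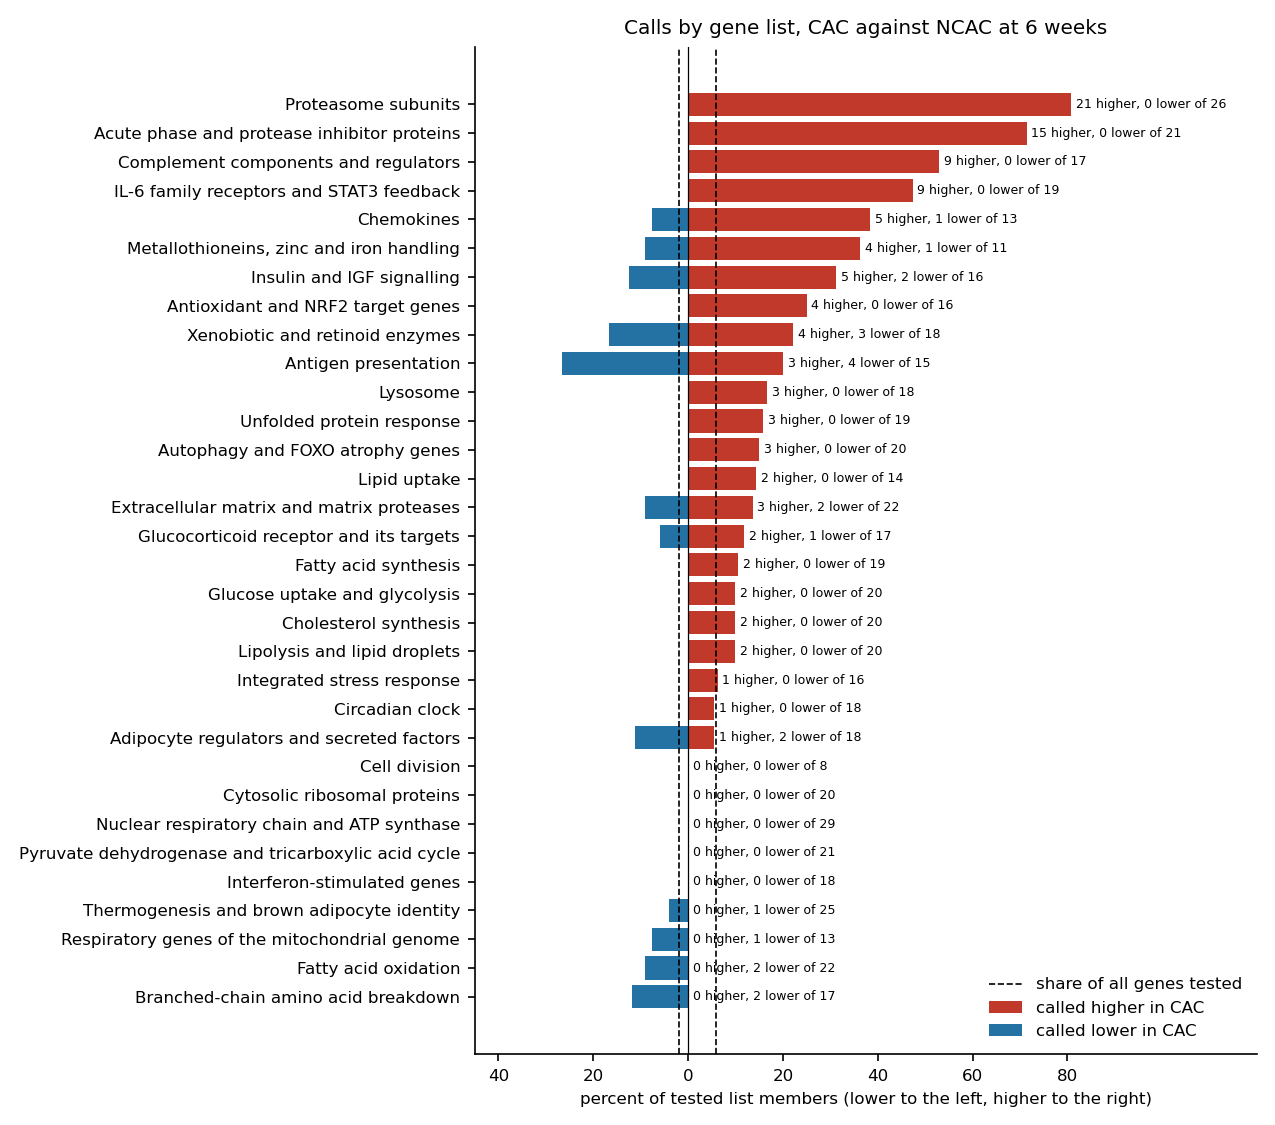
Share of the tested members of each process list called higher in CAC (red, to the right) or lower (blue, to the left) at 6 weeks, in percent, with counts beside the bars. Dashed lines mark the share of all 12581 genes called in each direction, 5.82% higher and 1.95% lower, and the proteasome and acute phase lists reach farthest to the right.

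Several scavenger receptors of resident macrophages rose, while 4 genes of antigen presentation by MHC class II fell. Of 12 tested macrophage markers 5 rose and none fell, with a median of 0.56, beside 5.82% of all genes called higher and 1.95% called lower. Vsig4, a complement receptor of tissue macrophages, had 2.47, 2.55, 2.89, 3.29 and 4.07 TPM in the CAC libraries, against 0.200, 0.143, 0.137, 0.0294 and 0.370 TPM in the NCAC libraries. Mrc1, the mannose receptor, had 17.6, 13.7, 21.0, 16.4 and 16.1 TPM in the CAC libraries, against 5.57, 8.29, 4.64, 9.09 and 6.17 TPM in the NCAC libraries. Cd163, the scavenger receptor for haptoglobin bound to haemoglobin, had 18.5, 12.6, 14.2, 14.5 and 16.1 TPM in the CAC libraries, against 5.76, 5.37, 2.88, 5.73 and 4.04 TPM in the NCAC libraries. All 3 were apart between groups, by 1.78 ± 0.25 (adjusted p = 1.3e-06) for Vsig4, 1.23 ± 0.22 (adjusted p = 0.00013) for Mrc1 and 1.51 ± 0.31 (adjusted p = 0.00062) for Cd163. The scavenger receptor Msr1 averaged 1.22 ± 0.155 TPM in CAC and 0.428 ± 0.144 TPM in NCAC (SD, n = 5 each), with a log2 difference of 0.64 ± 0.10 (adjusted p = 2.1e-05). The general macrophage markers Adgre1, Csf1r, Cd68 and Lyz2 were not called. Over all markers on the list the summed level was 183.3 to 235.7 TPM in CAC and 82.6 to 280.1 TPM in NCAC, so the summed level overlapped, and a larger number of macrophages cannot be told apart from more RNA per cell in bulk tissue. Wfdc17, a small secreted protein of activated macrophages, had 28.6, 36.2, 62.2, 52.4 and 50.3 TPM in the CAC libraries, against 5.65, 6.15, 3.98, 8.76 and 3.64 TPM in the NCAC libraries. The groups lay apart, by 2.82 ± 0.35 (adjusted p = 8.2e-08).

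The invariant chain Cd74 and the class II chains H2-Aa, H2-Ab1 and H2-Eb1 made up the 4 members that fell among 15 tested antigen presentation genes, while H2-D1, Tapbp and Nlrc5 rose. Among all genes, 5.82% were called higher and 1.95% lower. Without CAC library 1, 1 gene of the list was called higher, Nlrc5, and the calls of H2-D1 and Tapbp were lost. H2-Aa had 7.59, 20.7, 18.1, 18.9 and 16.2 TPM in the CAC libraries, against 43.4, 42.7, 31.7, 93.3 and 29.4 TPM in the NCAC libraries. CAC library 1 was the lowest CAC library and NCAC library 4 the highest NCAC library, the groups did not overlap, and the log2 difference was -1.45 ± 0.41 (adjusted p = 0.017). Cd74 had 23.2, 58.3, 50.5, 54.5 and 39.5 TPM in the CAC libraries, against 114, 112, 77.5, 246 and 72.3 TPM in the NCAC libraries, in the same order at both ends, with a log2 difference of -1.36 ± 0.40 (adjusted p = 0.025). For H2-Ab1 and H2-Eb1 the levels were 8.04 to 15.9 TPM in CAC and 20.4 to 76.8 TPM in NCAC, and 8.91 to 24.2 TPM in CAC and 37.6 to 129 TPM in NCAC, and the log2 differences were -1.28 ± 0.38 (adjusted p = 0.026) and -1.61 ± 0.50 (adjusted p = 0.032). The calls of these 4 genes were lost in some fits without 1 library, in which the log2 differences were -0.99 to -1.59. H2-Aa lost its call without CAC library 1 (0.093) or NCAC library 4 (0.069), Cd74 without CAC library 1 (0.11) or NCAC library 4 (0.093), H2-Ab1 without CAC library 1 (0.10) or NCAC library 4 (0.10), and H2-Eb1 without CAC library 1 (0.13), CAC library 5 (0.055), NCAC library 1 (0.060) or NCAC library 4 (0.10), where parentheses hold the adjusted p. Without the filter on low values H2-Eb1 had an adjusted p of 0.052. Against Con at 6 weeks, 1 gene of the antigen presentation list was called lower in CAC and 5 higher. In that comparison 0.978% of all genes were lower and 20.7% higher. For CAC against NCAC at 8 weeks, 0 genes of the list were lower and 9 higher, beside 1.98% and 37.3% of all genes. Nlrc5, a transactivator of MHC class I genes, had 4.47, 4.16, 6.04, 4.04 and 4.40 TPM in the CAC libraries, against 2.08, 2.61, 2.63, 2.57 and 2.31 TPM in the NCAC libraries. Its groups did not overlap and differed by 0.70 ± 0.17 (adjusted p = 0.0047).

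Retnla, Rnase2a and Lyz1 were among the 12 lowest named genes. Retnla, a secreted protein of alternatively activated macrophages, had 18.5, 35.0, 53.3, 34.8 and 39.1 TPM in the CAC libraries, against 89.5, 131, 78.3, 1284 and 82.2 TPM in the NCAC libraries. Rnase2a, a ribonuclease of the eosinophil family, had 0.201, 0.125, 0.263, 0.465 and 0.397 TPM in the CAC libraries, against 1.85, 1.99, 2.56, 105 and 1.49 TPM in the NCAC libraries. Lyz1, a lysozyme with the near-identical copy Lyz2, had 0.435, 0.714, 3.43, 2.24 and 2.08 TPM in the CAC libraries, against 4.13, 6.30, 4.51, 62.3 and 5.53 TPM in the NCAC libraries. NCAC library 4 was by far the highest for all 3 genes, yet the other 4 NCAC libraries also exceeded every CAC library. The log2 differences were -2.17 ± 0.46 (adjusted p = 0.0010), -2.23 ± 0.50 (adjusted p = 0.0021) and -1.92 ± 0.39 (adjusted p = 0.00063), and without NCAC library 4 they were -1.42, -1.20 and -1.25 and still called. In a fit of the groups compared alone, with all 10 libraries, the calls were lost, with adjusted p of 0.084, 0.16 and 0.099.

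The metallothioneins Mt1 and Mt2 rose. Mt2 had 2782, 788, 861, 938 and 1025 TPM in the CAC libraries, against 144, 184, 89.1, 98.2 and 83.7 TPM in the NCAC libraries, and Mt1 had 4036, 1794, 1945, 1701 and 1739 TPM in the CAC libraries, against 353, 406, 272, 435 and 253 TPM in the NCAC libraries. These proteins bind zinc and copper, and their genes respond to metals, glucocorticoids and STAT3. In each, CAC library 1 was the highest and the groups lay apart, by 3.29 ± 0.52 (adjusted p = 1.2e-05) for Mt2 and 2.65 ± 0.41 (adjusted p = 9.6e-06) for Mt1. Of 11 tested genes of metallothioneins and of zinc and iron handling, 4 rose and 1 fell, and 2 rose without CAC library 1. Among 17 tested glucocorticoid receptor genes and targets, 2 rose and 1 fell, with a median of 0.28. Of all genes, 5.82% were called higher and 1.95% lower. Hsd11b1, which regenerates active glucocorticoid inside cells, had 51.7, 18.9, 45.7, 32.8 and 27.6 TPM in the CAC libraries, against 10.7, 8.82, 6.45, 8.94 and 10.7 TPM in the NCAC libraries. Its log2 difference was 1.78 ± 0.30 (adjusted p = 4.2e-05), with no overlap between groups. Fkbp5, a chaperone that restrains the receptor, had 67.8, 17.0, 28.4, 44.5 and 28.2 TPM in the CAC libraries, against 7.40, 2.46, 1.92, 6.86 and 8.63 TPM in the NCAC libraries. CAC library 1 was the highest and NCAC library 3 the lowest, the groups did not overlap, and the log2 difference of 2.58 ± 0.71 (adjusted p = 0.015) lost its call without CAC library 1 (0.063) or NCAC library 3 (0.053). The cell cycle inhibitor Cdkn1c fell, with 5.26, 4.83, 6.42, 5.34 and 10.7 TPM in the CAC libraries, against 18.1, 15.5, 13.7, 21.0 and 17.3 TPM in the NCAC libraries. CAC library 5 was the nearest to NCAC without reaching it, and the log2 difference was -1.31 ± 0.22 (adjusted p = 4.2e-05).

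Of 25 tested genes of the heat-making programme and of brown adipocytes 1 fell and none rose, with a median of 0.11, beside 5.82% of all genes called higher and 1.95% called lower. Ucp1 had 7510, 8205, 6479, 5569 and 5135 TPM in the CAC libraries, against 5169, 7529, 4711, 9679 and 4315 TPM in the NCAC libraries. The groups overlapped throughout, NCAC library 4 held the highest value of all 10, and the log2 difference was 0.12 ± 0.27 (adjusted p = 0.84). The standard error exceeded the difference, which does not show equal levels. Dio2, the deiodinase that activates thyroid hormone, had 104, 154, 25.6, 43.9 and 97.8 TPM in the CAC libraries, against 95.0, 61.8, 113, 178 and 12.5 TPM in the NCAC libraries. Ppargc1a, a coactivator of mitochondrial genes, had 34.9, 40.9, 10.3, 24.1 and 43.2 TPM in the CAC libraries, against 16.7, 15.9, 28.5, 35.7 and 6.83 TPM in the NCAC libraries. Both spread several-fold inside each group, and neither was called, at 0.04 ± 0.65 (adjusted p = 0.98) and 0.58 ± 0.48 (adjusted p = 0.52). Adrb3 (chr8:27225776-27250616, minus strand), the receptor for noradrenaline on adipocytes, was the member that fell, with 25.9, 55.4, 71.3, 30.0 and 60.3 TPM in the CAC libraries, against 96.2, 138, 121, 109.6 and 76.4 TPM in the NCAC libraries. Its highest CAC value lay just under its lowest NCAC value, and the log2 difference was -1.22 ± 0.36 (adjusted p = 0.024). The call was lost without CAC library 1 (0.11), CAC library 4 (0.083), NCAC library 2 (0.063) or NCAC library 3 (0.056).

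**Figure D4:**
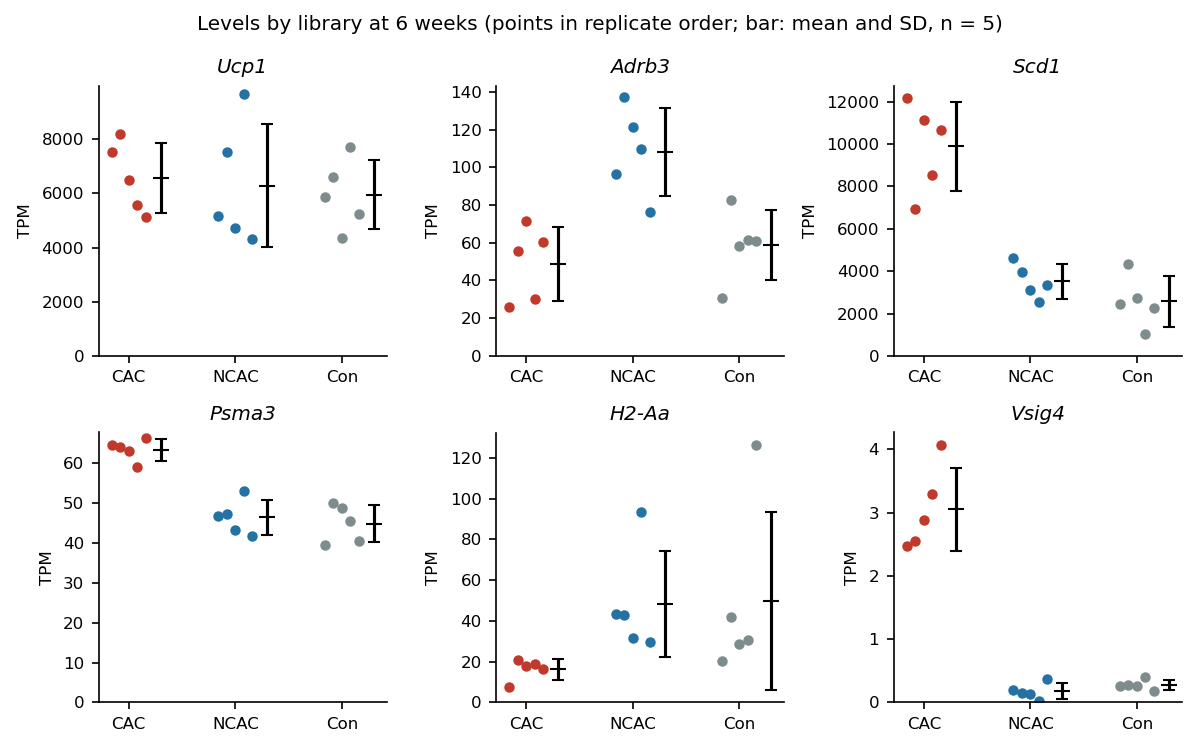
TPM of 6 genes in CAC (red), NCAC (blue) and Con (grey) at 6 weeks, 1 point per library in replicate order, with the mean and SD of 5 libraries as a bar. Ucp1 overlaps between the groups, Adrb3 and H2-Aa are lower in CAC than in NCAC, and Scd1, Psma3 and Vsig4 are higher in CAC than in both other groups.

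Adipocytes also secrete hormones and carrier proteins. Adiponectin (Adipoq) had 936, 840.1, 1125, 990.5 and 1063 TPM in the CAC libraries, against 1133, 1073, 1088, 1130 and 958 TPM in the NCAC libraries, and leptin (Lep) had 1.01, 3.86, 15.6, 7.94 and 3.67 TPM in the CAC libraries, against 4.44, 13.5, 10.2, 7.39 and 22.9 TPM in the NCAC libraries. Neither was called, at -0.12 ± 0.13 (adjusted p = 0.61) and -0.94 ± 0.53 (adjusted p = 0.29), and the groups overlapped for both. Rbp4, the plasma carrier of retinol, had 91.0, 127, 139.9, 118 and 147 TPM in the CAC libraries, against 318, 593, 294, 481 and 311 TPM in the NCAC libraries. The highest CAC library had 147 TPM and the lowest NCAC library 294 TPM, and the log2 difference was -1.63 ± 0.27 (adjusted p = 2.5e-05). Rarres2, which encodes the chemoattractant chemerin, had 49.6, 52.2, 71.5, 45.3 and 49.3 TPM in the CAC libraries, against 28.2, 29.3, 20.3, 30.0 and 27.6 TPM in the NCAC libraries. It rose without overlap, by 0.95 ± 0.17 (adjusted p = 0.00014). Of 18 tested adipocyte regulators and secreted factors 1 rose and 2 fell, beside 5.82% of all genes called higher and 1.95% called lower.

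Some genes of lipid metabolism rose, in lists whose counts stand beside 5.82% of all genes called higher and 1.95% called lower. Scd1 (chr19:44394455-44407879, minus strand), the desaturase that makes monounsaturated fatty acids, had 12180, 6933, 11110, 8558 and 10660 TPM in the CAC libraries, against 4625, 3979, 3105, 2527 and 3329 TPM in the NCAC libraries. The lowest CAC library exceeded the highest NCAC library, and the log2 difference was 1.50 ± 0.28 (adjusted p = 0.00023). Fasn, which makes the saturated precursor, had 4588, 3290, 3515, 4273 and 2790 TPM in the CAC libraries, against 2591, 3843, 2859, 2912 and 3635 TPM in the NCAC libraries. It overlapped between groups and was not called, at 0.21 ± 0.20 (adjusted p = 0.57). In the fatty acid synthesis list 2 of 19 tested genes rose and none fell. In lipolysis 2 of 20 tested genes rose and none fell: the triglyceride lipase Pnpla2 and the lipid droplet protein Plin5. Pnpla2 had 1754, 1557, 1409, 1624 and 1574 TPM in the CAC libraries, against 1275, 1194, 1065, 1452 and 1070 TPM in the NCAC libraries, overlapped between groups and differed by 0.39 ± 0.13 (adjusted p = 0.041). Plin5 had 227, 212, 165, 249 and 167 TPM in the CAC libraries, against 142, 141, 137, 157 and 141 TPM in the NCAC libraries, did not overlap, and differed by 0.49 ± 0.14 (adjusted p = 0.022). The Pnpla2 call was lost without CAC library 1 (0.13), CAC library 2 (0.062), CAC library 4 (0.082), CAC library 5 (0.063), NCAC library 1 (0.052), NCAC library 2 (0.068), NCAC library 3 (0.12) or NCAC library 5 (0.12), and the Plin5 call without CAC library 1 (0.080), CAC library 4 (0.090) or NCAC library 3 (0.050). Quantile normalization ended the first, at an adjusted p of 0.073, as did testing without the filter, at 0.063, and removal of the mitochondrial genome the second, at 0.068. Lrp1, an endocytic receptor for lipoprotein remnants, averaged 45.3 ± 6.28 TPM in CAC and 20.0 ± 4.27 TPM in NCAC, and its ligand Apoe averaged 572 ± 84.4 TPM in CAC and 282 ± 85.1 TPM in NCAC (SD, n = 5 each). Both rose, by 1.15 ± 0.25 (adjusted p = 0.0016) and 1.06 ± 0.28 (adjusted p = 0.011), as 2 of 14 tested lipid uptake genes. Cers4, a ceramide synthase, had 10.3, 7.70, 9.40, 6.80 and 5.01 TPM in the CAC libraries, against 1.83, 1.50, 1.28, 1.28 and 1.72 TPM in the NCAC libraries. All CAC libraries lay above all NCAC libraries, and the log2 difference was 1.78 ± 0.17 (adjusted p = 1.9e-10).

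Mitochondrial fuel use was covered by 4 lists of nuclear genes, beside the 5.82% of all genes called higher and 1.95% called lower. Among 29 nuclear respiratory chain genes and 21 genes of pyruvate dehydrogenase and the tricarboxylic acid cycle none was called, and 2 of 22 fatty acid oxidation genes and 2 of 17 genes of branched-chain amino acid breakdown fell. Without NCAC library 4, 5 respiratory chain genes and 2 of the tricarboxylic acid cycle list were called higher, and with library weights 11 and 3. With the mitochondrial genome removed and the rest rescaled, 1 gene of each of these lists was called lower, and 10 fatty acid oxidation genes and 6 of branched-chain amino acid breakdown were called lower. Without NCAC library 4, 0 fatty acid oxidation genes and 1 of branched-chain amino acid breakdown were called lower. The same counts, 0 and 1, came from a fit of the groups compared alone. Of the 13 protein-coding genes of the mitochondrial genome 1 fell: mt-Cytb, a subunit of respiratory complex III, had 47310, 48990, 44440, 50940 and 42320 TPM in the CAC libraries, against 53140, 50930, 56700, 56460 and 56610 TPM in the NCAC libraries. CAC library 4 and NCAC library 2 held nearly equal values and the other CAC libraries were lower. The log2 difference was -0.23 ± 0.06 (adjusted p = 0.014), and the call was lost without CAC library 5 (0.061), with an adjusted p of 0.086 after rescaling by median of ratios, 0.71 after quantile normalization, 0.70 without the filter and 0.20 in a fit of the groups compared alone. Ldha, which makes lactate from pyruvate, had 1625, 1528, 1346, 1404 and 1286 TPM in the CAC libraries, against 785, 1032, 675, 1229 and 924 TPM in the NCAC libraries. Every CAC library exceeded every NCAC library, with a log2 difference of 0.66 ± 0.13 (adjusted p = 0.00068), and 2 of 20 tested genes of glucose uptake and glycolysis rose.

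Most proteasome subunits rose, by small amounts. Of 26 tested subunits 21 rose and none fell, with a median log2 difference of 0.40 against 0.07 over all genes, and all 26 had values above 0. Among all genes, 5.82% were called higher and 1.95% lower. Psma3 and Psma6 are alpha ring subunits of the 20S core, Psmb7 is a catalytic beta subunit, and Psmd3 belongs to the 19S cap. Psma3 had 64.6, 64.2, 63.0, 59.0 and 66.4 TPM in the CAC libraries, against 46.9, 47.2, 43.4, 53.1 and 41.9 TPM in the NCAC libraries. Psmb7 had 90.1, 87.9, 80.7, 77.4 and 83.2 TPM in the CAC libraries, against 62.8, 61.2, 55.8, 67.8 and 55.4 TPM in the NCAC libraries. Psmd3 had 60.3, 48.1, 40.8, 51.2 and 47.0 TPM in the CAC libraries, against 32.4, 32.5, 28.5, 38.7 and 29.1 TPM in the NCAC libraries. Psma6 averaged 271 ± 47.2 TPM in CAC and 169 ± 19.2 TPM in NCAC (SD, n = 5 each). For Psma3, Psmb7 and Psmd3 the lowest CAC library lay above the highest NCAC library. The log2 differences were 0.45 ± 0.08 (adjusted p = 0.00014) for Psma3, 0.46 ± 0.09 (adjusted p = 0.00026) for Psmb7, 0.60 ± 0.12 (adjusted p = 0.00062) for Psmd3 and 0.67 ± 0.14 (adjusted p = 0.00066) for Psma6. The count was 12 without NCAC library 5, 15 in a fit of the groups compared alone and 17 with the mitochondrial genome removed.

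Proteases and antioxidant enzymes gave smaller counts, beside 5.82% of all genes called higher and 1.95% called lower. Cathepsin L (Ctsl), a lysosomal protease, averaged 193 ± 23.6 TPM in CAC and 122 ± 18.8 TPM in NCAC (SD, n = 5 each), with a log2 difference of 0.66 ± 0.17 (adjusted p = 0.0074). In the lysosome list 3 of 18 tested genes rose and 1 did so without CAC library 1. Of 16 antioxidant genes 4 rose and none fell. Srxn1, which repairs oxidised peroxiredoxins, had 60.4, 59.5, 43.8, 45.0 and 53.3 TPM in the CAC libraries, against 27.4, 30.6, 24.4, 28.1 and 26.9 TPM in the NCAC libraries. Gsr, which reduces glutathione, averaged 30.4 ± 2.02 TPM in CAC and 20.1 ± 1.96 TPM in NCAC, and Gclm, a subunit of the enzyme that makes it, averaged 13.5 ± 2.53 TPM in CAC and 8.60 ± 1.10 TPM in NCAC. The 3 genes did not overlap between groups, with log2 differences of 0.90 ± 0.14 (adjusted p = 5.2e-06), 0.57 ± 0.11 (adjusted p = 0.00027) and 0.59 ± 0.12 (adjusted p = 0.00095). Their regulator Nfe2l2 was not called.

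Of 18 tested xenobiotic and retinoid enzymes 4 rose and 3 fell, beside 5.82% of all genes called higher and 1.95% called lower. Cyp2b10, a cytochrome P450 of drug metabolism, had 260.3, 101, 151, 134 and 77.0 TPM in the CAC libraries, against 36.3, 3.27, 2.74, 16.1 and 12.8 TPM in the NCAC libraries. The values ranged over several-fold within both groups without overlap, and the log2 difference of 3.64 ± 1.04 (adjusted p = 0.019) lost its call without CAC library 1 (0.064), NCAC library 2 (0.057) or NCAC library 3 (0.064). Fmo2, a flavin monooxygenase, had 38.4, 20.5, 25.1, 64.5 and 18.9 TPM in the CAC libraries, against 12.2, 9.62, 5.66, 8.87 and 11.9 TPM in the NCAC libraries. The P450 enzyme Cyp1b1 averaged 7.20 ± 0.990 TPM in CAC and 3.25 ± 1.14 TPM in NCAC (SD, n = 5 each). Both rose, by 1.58 ± 0.35 (adjusted p = 0.0017) and 0.98 ± 0.22 (adjusted p = 0.0019). The carboxylesterases Ces1d, a lipase of adipocytes, and Ces1f fell. Ces1d had 482, 656, 780, 774 and 917 TPM in the CAC libraries, against 1129, 1050, 1182, 1273 and 1035 TPM in the NCAC libraries. Ces1f had 9.44, 14.5, 28.7, 16.6 and 35.1 TPM in the CAC libraries, against 48.6, 49.3, 52.7, 52.7 and 40.3 TPM in the NCAC libraries. Neither overlapped between groups, and the log2 differences were -0.68 ± 0.15 (adjusted p = 0.0019) and -1.32 ± 0.30 (adjusted p = 0.0024).

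Insulin and growth factor genes, vessels and matrix also held called members, beside 5.82% of all genes called higher and 1.95% called lower. Igfbp3, the main plasma carrier of IGF-1, had 75.0, 31.7, 27.8, 43.4 and 20.5 TPM in the CAC libraries, against 10.1, 9.15, 3.24, 7.72 and 13.4 TPM in the NCAC libraries. Igfbp6, which prefers IGF-2, had 8.46, 11.4, 15.6, 13.2 and 12.7 TPM in the CAC libraries, against 35.9, 31.9, 20.9, 61.8 and 25.1 TPM in the NCAC libraries. Irs1, the adaptor of the insulin receptor, had 6.47, 7.90, 11.1, 6.37 and 12.6 TPM in the CAC libraries, against 19.7, 16.6, 13.2, 19.6 and 13.6 TPM in the NCAC libraries. Igfbp3 rose by 2.03 ± 0.42 (adjusted p = 0.00076), while Igfbp6 differed by -1.37 ± 0.29 (adjusted p = 0.0011) and Irs1 by -0.85 ± 0.19 (adjusted p = 0.0015), and no gene of the 3 overlapped between groups. In that list 5 of 16 genes rose and 2 fell. Against Con at 6 weeks, 6 genes of the same list were called higher in CAC and 0 lower, beside 20.7% and 0.978% of all genes. Plvap, a protein of the diaphragms of capillary fenestrae, had 29.8, 27.0, 39.5, 32.5 and 23.3 TPM in the CAC libraries, against 10.2, 12.5, 6.62, 7.97 and 6.86 TPM in the NCAC libraries, and it was called at 1.69 ± 0.27 (adjusted p = 1.1e-05), while the endothelial markers Pecam1, Cdh5 and Kdr were not called. Cspg4, a proteoglycan of pericytes, averaged 22.8 ± 3.90 TPM in CAC and 12.9 ± 1.50 TPM in NCAC, with a log2 difference of 0.76 ± 0.16 (adjusted p = 0.00080). It was the only one called of 7 tested mural and smooth muscle markers. That list had a median of -0.12, with 4 members below 0 and 3 above. The basement membrane collagens Col4a1 and Col4a2 averaged 162 ± 27.9 TPM in CAC and 93.2 ± 19.1 TPM in NCAC, and 107 ± 11.8 TPM in CAC and 64.9 ± 11.9 TPM in NCAC (SD, n = 5 each). They rose by 0.80 ± 0.19 (adjusted p = 0.0039) and 0.73 ± 0.18 (adjusted p = 0.0057), among 22 tested matrix genes of which 3 rose and 2 fell, and 3 rose and 7 fell after rescaling by median of ratios. Most of the matrix list lay the other way, with a median of -0.19, 15 members below 0 and 7 above. When 1 library was left out, 0 to 5 matrix genes were called lower, with 0 without NCAC library 4. Apod, a lipid-binding apolipoprotein, had 80.0, 62.1, 99.7, 73.5 and 75.0 TPM in the CAC libraries, against 14.8, 12.7, 5.05, 6.87 and 12.8 TPM in the NCAC libraries, without overlap and with a log2 difference of 2.87 ± 0.39 (adjusted p = 6.6e-07).

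Further genes that fell belonged to no process list with more than a few calls. Mmd2 (chr5:142562358-142608800, minus strand), a membrane protein of the progestin and adipoQ receptor family, had 7.18, 3.88, 2.54, 4.57 and 6.04 TPM in the CAC libraries, against 77.2, 24.7, 58.6, 56.2 and 12.7 TPM in the NCAC libraries. NCAC library 5 was the lowest of its group and still above every CAC library, with a log2 difference of -2.81 ± 0.46 (adjusted p = 2.1e-05). The paraoxonase Pon1, a lactonase carried on high-density lipoprotein, had 0.696, 2.11, 2.51, 2.96 and 1.78 TPM in the CAC libraries, against 9.90, 8.45, 7.23, 9.61 and 5.93 TPM in the NCAC libraries. All CAC libraries were below all NCAC libraries, by -1.65 ± 0.23 (adjusted p = 1.3e-06). Oxtr, the oxytocin receptor, had 0.507, 0.700, 1.88, 0.723 and 0.881 TPM in the CAC libraries, against 7.17, 8.27, 2.68, 4.26 and 2.87 TPM in the NCAC libraries, apart but with a call, at -1.58 ± 0.47 (adjusted p = 0.025), that was lost without CAC library 1 (0.074), CAC library 2 (0.051), CAC library 4 (0.052), NCAC library 1 (0.071) or NCAC library 2 (0.076). Areg, a ligand of the epidermal growth factor receptor, had 0.0377, 0, 0.0371, 0 and 0 TPM in the CAC libraries, against 18.2, 6.59, 0, 3.48 and 4.94 TPM in the NCAC libraries. Aqp5, a water channel of glands, had 0.660, 0.258, 0.947, 0.574 and 0.708 TPM in the CAC libraries, against 35.7, 18.1, 0.171, 1.78 and 12.7 TPM in the NCAC libraries. Tgm3, a transglutaminase of epithelium, had 0.954, 1.60, 2.92, 1.36 and 4.32 TPM in the CAC libraries, against 19.3, 11.4, 2.79, 16.3 and 8.76 TPM in the NCAC libraries. NCAC library 3 lay within or below the CAC range for all 3, so the groups overlapped. The log2 differences were -2.36 ± 0.64 (adjusted p = 0.013) for Areg, -2.29 ± 0.76 (adjusted p = 0.049) for Aqp5 and -1.86 ± 0.56 (adjusted p = 0.027) for Tgm3. Il17b, a cytokine of the interleukin-17 family, had 0.133, 0, 0.0652, 0.0659 and 0 TPM in the CAC libraries, against 15.8, 12.1, 0.0589, 0.315 and 0.476 TPM in the NCAC libraries, with 2 high NCAC libraries and a log2 difference of -1.69 ± 0.56 (adjusted p = 0.049). Parentheses give the adjusted p without a library. The Areg call was lost without NCAC library 1 (0.075). The Aqp5 call was lost without CAC library 1 (0.094), CAC library 2 (0.091), CAC library 3 (0.062), CAC library 4 (0.084), CAC library 5 (0.071), NCAC library 1 (0.19), NCAC library 2 (0.13) or NCAC library 5 (0.12), in the fit of the groups compared alone (0.11), with a pseudocount of 0.1 (0.14) and without the filter (0.075). That of Tgm3 was lost without CAC library 1 (0.089), CAC library 2 (0.054), CAC library 4 (0.064), NCAC library 1 (0.086), NCAC library 2 (0.052) or NCAC library 4 (0.062), and that of Il17b without CAC library 1 (0.089), CAC library 2 (0.081), CAC library 3 (0.070), CAC library 4 (0.082), CAC library 5 (0.078), NCAC library 1 (0.24) or NCAC library 2 (0.20), in the fit of the groups compared alone (0.21) and without the filter (0.074). Of 14 tested markers of epithelium 1 fell and none rose, while 13 were called lower with library weights, with a median of -1.10 and summed levels of 10.6 to 37.8 TPM in CAC and 2.14 to 250.5 TPM in NCAC, and the part of epithelium in these genes was not tested.

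Con libraries at 6 weeks gave a background for both tumour groups. The comparisons with Con share libraries with the one between the tumours, so their counts are not independent. Against Con, CAC had 2608 genes higher (20.7%) and 123 lower (0.978%), with 652 higher and 398 lower after rescaling by median of ratios and 457 higher and 856 lower with the mitochondrial genome removed. The total of 2731 became 1593 without Con library 1 and 1601 without Con library 5, and 1807 without CAC library 4. NCAC against Con gave no called gene (0.0%) in limma, with 1059 genes at an unadjusted p under 0.05, 1 gene called without the filter and 226 with library weights. In Con, Itih4 had 1.68, 1.54, 2.04, 1.90 and 0.886 TPM, Hp had 142, 109, 176, 159 and 177 TPM and Cxcl13 had 1.73, 1.79, 2.69, 2.04 and 0.731 TPM. These values lay in or near the NCAC range and far below CAC. The log2 differences of Itih4 were 7.08 (adjusted p = 5.4e-11) for CAC against Con and -0.22 (adjusted p = 0.89) for NCAC against Con. For Hp they were 5.07 (adjusted p = 4.7e-10) for CAC against Con and 0.51 (adjusted p = 0.70) for NCAC against Con. Scd1 had 2465, 4349, 2739, 1040 and 2271 TPM in Con, all below the CAC range. The Con values of Adrb3 were 30.6, 82.8, 58.2, 61.2 and 61.0 TPM, which overlapped those of CAC and, at their highest, those of NCAC. The log2 differences were -0.31 (adjusted p = 0.54) for CAC against Con and 0.91 (adjusted p = 0.58) for NCAC against Con. Mmd2 had 8.20, 12.5, 14.8, 16.8 and 24.2 TPM in Con, above all CAC libraries and overlapping the lower NCAC libraries, with log2 differences of -1.46 (adjusted p = 0.019) for CAC against Con and 1.35 (adjusted p = 0.58) for NCAC against Con. Retnla in Con was 99.4, 112, 164, 86.6 and 102 TPM, and its log2 differences were -1.65 (adjusted p = 0.0085) for CAC against Con and 0.52 (adjusted p = 0.67) for NCAC against Con. Of the 245 genes lower in CAC than in NCAC, 82 were also called lower in CAC than in Con, and of the 732 higher, 704 were also called higher, while the choice of genes on shared CAC libraries fixes part of both counts.

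The same comparison at 2, 4 and 8 weeks used other libraries, 10 at 2 weeks, 10 at 4 weeks and 12 at 8 weeks. CAC had 7 libraries at 8 weeks and NCAC 5, so the counts of calls come from unequal group sizes. At 2 weeks 5 genes were called (0.0397%), at 4 weeks 74 (0.588%), and at 8 weeks 4698 were higher (37.3%) and 249 lower (1.98%). After rescaling by median of ratios the 8-week counts were 1604 higher and 1501 lower. Of the 732 genes higher at 6 weeks, 2 were called higher at 2 weeks, 65 at 4 weeks and 660 at 8 weeks. The 65 were 8.88% of the 6-week genes and 87.8% of the 4-week genes, and the 660 were 90.2% of the 6-week genes and 14.1% of the 8-week genes. Of the 245 genes lower at 6 weeks, 69 were lower at 8 weeks, 28.2% of the 6-week genes and 27.7% of the 8-week genes, and 2 were called higher. After rescaling by median of ratios in both weeks, 497 genes were higher at 6 and 8 weeks, 70.6% of the 6-week and 31.0% of the 8-week genes, and 309 were lower, 48.4% of the 6-week and 20.6% of the 8-week genes.

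A test of the difference itself asked whether the CAC minus NCAC gap at 6 weeks differed from that at the other weeks. Against 2 weeks it called 106 genes (0.843%), 55 with a higher and 51 with a lower gap at 6 weeks. That count was 31 without CAC library 1 of 6 weeks and reached 145 without NCAC library 4 of 2 weeks. The gap of Itih4 was 1.57 ± 0.67 at week 2, 5.02 ± 0.67 at week 4, 7.29 ± 0.67 at week 6 and 8.07 ± 0.62 at week 8. It differed between 6 and 2 weeks by 5.72 ± 0.94 (adjusted p = 0.00057). For Hp the gap was 0.96 ± 0.52 at week 2, 3.14 ± 0.52 at week 4, 4.56 ± 0.52 at week 6 and 4.40 ± 0.48 at week 8, with a 6 against 2 week difference of 3.60 ± 0.74 (adjusted p = 0.0084). Cxcl13 had a gap of 0.59 ± 0.64 at week 2, 2.00 ± 0.64 at week 4, 5.06 ± 0.64 at week 6 and 4.81 ± 0.60 at week 8, and it differed by 4.46 ± 0.91 (adjusted p = 0.0084). The metallothionein Mt2 went the same way, at 0.24 ± 0.52 at week 2, 1.90 ± 0.52 at week 4, 3.29 ± 0.52 at week 6 and 4.01 ± 0.48 at week 8, with a difference of 3.05 ± 0.74 (adjusted p = 0.030). Scd1 had a gap of -0.12 ± 0.28 at week 2, 0.16 ± 0.28 at week 4, 1.50 ± 0.28 at week 6 and 0.98 ± 0.26 at week 8, and its 6 against 2 week difference was 1.62 ± 0.40 (adjusted p = 0.036). The gap of Adrb3 had the opposite sign at 2 weeks: it was 0.76 ± 0.36 at week 2, -0.71 ± 0.36 at week 4, -1.22 ± 0.36 at week 6 and -0.63 ± 0.33 at week 8, a difference of -1.97 ± 0.51 (adjusted p = 0.042). That of Mmd2 was 0.00 ± 0.46 at week 2, -1.17 ± 0.46 at week 4, -2.81 ± 0.46 at week 6 and -0.88 ± 0.43 at week 8, and it was widest at 6 weeks, with a difference of -2.81 ± 0.65 (adjusted p = 0.023) against 2 weeks. Pon1 was also lowest at 6 weeks, with a gap of 0.02 ± 0.23 at week 2, -0.49 ± 0.23 at week 4, -1.65 ± 0.23 at week 6 and -0.74 ± 0.22 at week 8 and a difference of -1.67 ± 0.33 (adjusted p = 0.0074). The gap of Ucp1 was 0.11 ± 0.27 at week 2, -0.46 ± 0.27 at week 4, 0.12 ± 0.27 at week 6 and -1.03 ± 0.25 at week 8. When each of the 20 libraries of these 2 weeks was left out in turn, the 6 against 2 week calls of Itih4, Cxcl13, Hp and Pon1 held every time. Those of Mmd2, Mt2, Scd1 and Adrb3 were lost 3, 10, 10 and 14 times, with adjusted p of up to 0.075, 0.10, 0.095 and 0.13.

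**Figure D5:**
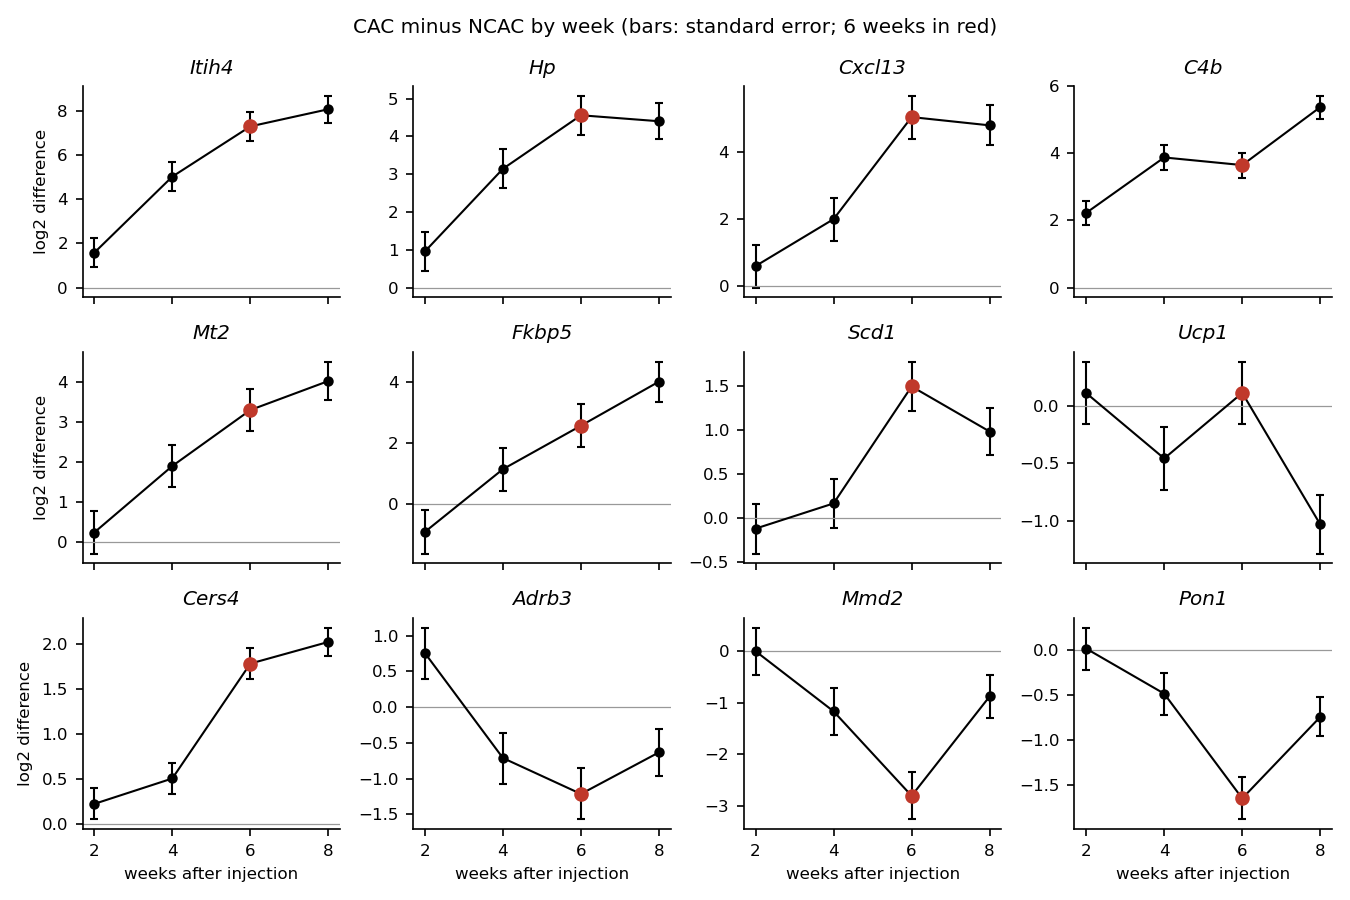
CAC minus NCAC log2 difference (y axis, log2(TPM + 1) units) with its standard error at 2, 4, 6 and 8 weeks after injection (x axis) for 12 genes, with 6 weeks in red. Itih4, Hp, Cxcl13 and Mt2 have wider gaps at 6 than at 2 weeks, and Mmd2 and Pon1 reach their lowest point at 6 weeks.

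Against 4 weeks 1 gene was called (0.00795%), with 594 at an unadjusted p under 0.05. It was Cers4, with a gap of 0.22 ± 0.17 at week 2, 0.50 ± 0.17 at week 4, 1.78 ± 0.17 at week 6 and 2.02 ± 0.16 at week 8 and a 6 against 4 week difference of 1.28 ± 0.25 (adjusted p = 0.038). No gene was called with a pseudocount of 0.1, without the filter, with a filter at 5 TPM, with the replicate block or in a fit of the groups compared alone. Against 8 weeks no gene was called (0.0%) in limma, with 1761 at an unadjusted p under 0.05, 4 called after rescaling by median of ratios and 2817 with library weights. The number of genes called against 8 weeks was 166 without CAC library 3 of 8 weeks. The count of called genes was larger at 8 weeks, where CAC had 7 libraries. It was not matched by a called difference from 6 weeks in any gene in the fit of all libraries. A p that misses the threshold does not show that the weeks were alike.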

How the data were processed

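RNA of mouse brown adipose tissue was sequenced after Trizol extraction with a TruSeq stranded mRNA kit on a NovaSeq instrument, per the labels. The authors deposited TPM for 47643 gene symbols in 62 libraries. The values refer to mm10, per the submitters' processing notes, and the aligner, annotation and quantification are not given in the sources used here. Every column summed to 1000000. The depth is unknown, so no counting interval or floor is given. The extraction text mentions another tumour model, and the strain differs between the labels and the series text.

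The filter kept 12581 genes that reached 1 TPM in 5 or more libraries, and their values were taken as log2(TPM + 1), which understates changes of low genes. The means of 12 groups were fitted to all 62 libraries in limma 3.58.1 under R 4.3.3 with a trended prior, and with Benjamini-Hochberg adjustment over all genes within a contrast. The script was tested on simulated data. Promoter windows came from RefSeq (GRCm38.p6), and gene positions from GENCODE (mm10), for 12160 of the tested genes. Plots used matplotlib 3.10.9 under Python 3.11.15.

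The groups compared, the 48 gene lists (767 genes, 687 tested) and the rule for named genes were chosen with earlier results of these data known. Named were the 12 highest and 12 lowest called genes, provided that the group with more RNA averaged 5 TPM and that the gene was not a predicted one, up to 4 called members of each list with the smallest p and up to 2 against its majority, 11 genes of thermogenesis, adipokines and stress, and the 4 highest and 4 lowest of each contrast between weeks, and genes that only repeated a pattern were left out. Genes named without values are list members given to complete a count. A gene that the rule names is not reported here. The mitochondrial share was compared by an exact permutation test. Alternatives were a pseudocount of 0.1, no filter, a filter at 5 TPM, median-of-ratios rescaling, quantile normalization, removal of the mitochondrial genome, library weights, the replicate number as a block, the groups compared alone, and each library left out in turn. Leaving out libraries for the muscle share was chosen after seeing the data.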

Additional observations from a re-analysis of the deposited data

Results flagged for a closer look

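Within the groups of 5, a rule flagged single libraries that lay far from the others. Its rate of about 1 in 20 by chance holds for independent, normally distributed values. TPM of genes that move together need not be either. The rule flagged 18 of 162 groups of named genes, a count that cannot be set against that rate. NCAC library 4 accounted for 10 of them, each time as the highest of its group: Retnla at 1284 TPM, Cd74 at 245.5 TPM, Plin5 at 156.6 TPM, H2-Eb1 at 128.6 TPM, Rnase2a at 105.3 TPM, H2-Aa at 93.3 TPM, H2-Ab1 at 76.8 TPM, Lyz1 at 62.3 TPM, Lrg1 at 55.5 TPM and Ccl8 at 22.4 TPM. These are genes of antigen presentation, macrophages and eosinophils for the most part, and the cause was not tested. In CAC library 1 both metallothioneins were the highest, Mt1 at 4036 TPM and Mt2 at 2782 TPM, and H2-Ab1 was the lowest at 8.04 TPM. In CAC library 3 the highest values were 71.5 TPM for Rarres2, 6.04 TPM for Nlrc5 and 1.88 TPM for Oxtr. Cdkn1c was highest in CAC library 5, at 10.7 TPM, and Rarres2 was lowest in NCAC library 3, at 20.3 TPM.

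The CAC minus NCAC difference was tested between 6 and 2 weeks, and 24 named genes passed in limma. When each of the 20 libraries was left out in turn, 17 of the 24 lost the call at least once, among them Vsig4 18 times, Wfdc17 16, Socs3 and Igfbp6 15, Serpina3m and Adrb3 14 and Hsd11b1 13 times. The 7 that kept it were Itih4, Cxcl13, Hp, Lrg1, Pon1, Srxn1 and Cers4. It was higher at 6 weeks by 5.72 log2 units for Itih4, 4.46 for Cxcl13, 3.60 for Hp, 3.21 for Serpina3n, 3.05 for Mt2, 2.53 for Mt1, 2.50 for Lrg1, 2.38 for Serpina3m, 2.29 for Apod, 2.10 for Fmo2 and 1.90 for Wfdc17. The smaller increases were 1.67 for Hsd11b1, 1.62 for Scd1, 1.56 for Cers4, 1.50 for Socs3, 1.37 for Vsig4 and 0.92 for Srxn1. It was lower at 6 weeks, with values of -2.81 for Mmd2, -2.70 for Retnla, -1.97 for Adrb3, -1.67 for Pon1, -1.57 for Igfbp6, -1.30 for Cdkn1c and -1.11 for Irs1. Between 6 and 4 weeks the difference was 1.28 for Cers4, the one gene called there.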

How the results depend on the processing

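Of 80 named genes tested, 74 were called, 59 of them in all 10 fits without a library and 56 under every alternative. Most were named because they were called in these data, so these counts do not describe all 977 calls. For CAC against NCAC the 977 calls became 1563 with the mitochondrial genome removed and 2442 with library weights, and 593 to 1072 when 1 library was left out. The 2731 calls of CAC against Con became 1050 with median of ratios, 1065 with quantile normalization and 1313 with the mitochondrial genome removed, and 1593 to 3203 when 1 library was left out. NCAC against Con had 0 calls, 1 without the filter and 226 with library weights. The 106 calls of 6 against 2 weeks became 68 with the filter at 5 TPM, 256 with median of ratios, 234 with quantile normalization, 320 with the mitochondrial genome removed, 847 with library weights, 203 in the fit of the groups compared alone, and 31 to 145 when 1 library was left out. For 6 against 4 weeks the count was 0 with a pseudocount of 0.1, no filter, the filter at 5 TPM, the replicate block and the groups compared alone, 168 with library weights, and 0 to 2 when 1 library was left out. For 6 against 8 weeks it was 4 with median of ratios, 6 with quantile normalization, 2 with the mitochondrial genome removed, 2817 with library weights, and 0 to 166 when 1 library was left out. The mitochondrial share differed by -6.51 to -3.15 percentage points when 1 library was left out. Directions turned only in genes not called. Ucp1 was -0.59 with quantile normalization, -0.034 with the mitochondrial genome removed and -0.0026 to 0.29 when 1 library was left out. Dio2 was -0.048 with median of ratios, -0.067 with quantile normalization, -0.10 with the mitochondrial genome removed and -0.55 to 0.40 when 1 library was left out. Fasn was -0.15 with quantile normalization. Why the counts moved was not tested. Replicate numbers did not pair the libraries: correlations of same-numbered CAC and NCAC deviations were -0.05, -0.14, -0.24, -0.18 and 0.07, and only CAC library 5 matched its own number best. With the number as a block 944 genes were called, 717 higher and 227 lower, and Aqp5 and Il17b lost their calls (adjusted p = 0.062 and 0.061). The unknown depth limits statements on genes near 1 TPM.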

Other observations

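Several gene groups outside the main comparisons held few calls, beside 5.82% of all genes called higher and 1.95% called lower. Of 19 tested genes of the unfolded protein response 3 rose and none fell, with a median log2 difference of 0.20, and none was called without CAC library 1. Of 20 genes of cholesterol synthesis 2 rose and none fell, and none was called without CAC library 1. The cytosolic ribosomal proteins, 20 genes, had no call and a median of 0.14. The 5 erythroid markers, which track blood in the tissue, had a median of -1.72 and no call, but 4 were called lower with library weights and 4 in a fit of the groups compared alone, with summed levels of 469.8 to 1677 TPM in CAC and 1279 to 4469 TPM in NCAC. The 16 skeletal muscle markers had no call, and their share of TPM was 0.110, 0.0941, 0.534, 0.223 and 0.363% in CAC, against 0.280, 0.278, 0.0865, 0.0650 and 0.414% in NCAC.

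The clock genes Arntl and Dbp had values in CAC library 3 outside the range of the other 9 libraries. Arntl, the activator BMAL1, had 2.10, 1.94, 14.9, 0.549 and 3.95 TPM in CAC, against 2.67, 1.52, 1.15, 2.58 and 0.617 TPM in NCAC. Dbp, a factor of the opposite phase of the daily cycle, had 43.2, 35.8, 4.73, 72.8 and 28.0 TPM in CAC, against 34.5, 65.7, 45.5, 48.5 and 72.5 TPM in NCAC. Both genes were chosen after their values were seen. The labels give no hour of collection, and its part in these values was not tested. Among 18 tested clock genes 1 was called higher and none lower.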
